A study of Homo sapiens with 10 samples.

Results

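The genes described here are 33 members of the cholesterol and lipid synthesis programme that the sterol regulatory element-binding proteins (SREBPs) control, together with the liver X receptor (LXR) genes that govern cholesterol export. They were taken by symbol from the 61587 rows of the gene count table, and each symbol matched one row. Every member had at least 200 counts over the 10 samples, so all 33 were among the 19006 genes tested.

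The cells were RPTEC/TERT1, a telomerase-immortalised line of human renal proximal tubule epithelium, grown in six-well plates. In the Irradiated group (n = 5) the cells received 10 Gy. The Control group (n = 5) was mock irradiated, being carried to the irradiator without exposure. PolyA-enriched RNA was collected from both groups after 7 days. All samples come from this 1 line, and the labels do not say that the replicates were separate cultures, so the p-values measure only the spread between these samples. In bulk RNA, a change in the number of cells with a transcript and a change in transcript per cell cannot be told apart.

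SREBPs are made as inactive membrane proteins of the endoplasmic reticulum. When membrane sterol is low, SCAP carries them to the Golgi, where proteases release the transcription factor, and when sterol is high, INSIG proteins hold SCAP back. SREBP2 mainly drives the enzymes of cholesterol synthesis and SREBP1 those of fatty acid synthesis, while LXRs sense oxysterols and switch on export pumps and SREBF1 itself. In the kidney, proximal tubule cells take up filtered lipid carriers and are known to accumulate lipid in disease.

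The libraries held 66269311 to 131555873 counts, the shallowest being Irradiated replicate 2. CDKN1A, the p53-induced cell cycle inhibitor used here as a check of the labels, was at 66.7 to 207.6 counts per 1000000 (CPM, after TMM normalisation) in controls and at 584.4 to 768.4 CPM in irradiated samples. Of 25 cell cycle genes, 23 fell, and their mean log2 CPM was 3.96 and 3.93 in Control replicates 1 and 3 against 5.17 to 5.24 in the other controls and 2.87 to 3.36 after irradiation. A list of 12 tubule epithelial markers summed to 2450 to 2993 CPM in controls and 2485 to 3349 CPM in irradiated samples. Most of this came from genes not particular to the proximal tubule, such as KRT8 (1010 CPM in controls) and PAX8 (533.0 CPM). Of the 10 with at least 200 counts, PAX2 and CDH1 fell (-0.27 and -0.18 on the log2 scale) and CDH2 rose (2.23, from 0.25 to 1.13 CPM). Among proximal tubule markers, the brush border enzyme ANPEP was at 247.8 CPM and CUBN at 4.37 CPM in controls, while LRP2 and SLC34A1, which define the mature segment, had 17 and 86 counts over all samples. Marker sums of other cell types were low but higher after irradiation, at 15.9 to 23.5 against 28.6 to 40.1 CPM for fibroblasts and 1.32 to 2.45 against 4.20 to 6.10 CPM for endothelium, and leukocyte markers summed to at most 1.37 CPM. These sums rested on few genes, mainly COL1A1 (18.9 to 32.2 CPM on average) and CDH5 (0.60 to 3.31 CPM), with DCN and PECAM1 also higher. COL1A2, COL3A1 and LUM had 23, 4 and 2 counts over all samples, and KDR and EMCN 2 and 9. Whether these transcripts came from other cell types, and their part in the results, was not tested.

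Most cholesterol synthesis genes showed no called difference, while a small set with distinct roles changed. INSIG2 and MSMO1 rose, and SREBF1, SCAP, MVK, SCD, NR1H3 and MYLIP fell, at an adjusted p under 0.05 in edgeR's quasi-likelihood test with the replicate number as a block. That is 8 of 33 members, or 24.2%, against 46.6% of all genes tested and 53.8% of the 10261 tested genes with a mean of at least 8 CPM, a level that 31 of the members reach. In all genes 23.9% were called higher and 22.7% lower. No member passed 2-fold, which 9.31% of all genes did, and the groups did not overlap for 3 members (SREBF1, NR1H3 and SCD), against 26.7% of all genes. The median absolute log2 fold change was 0.13 over the members and 0.23 over all genes (0.18 over genes of at least 8 CPM). The median standard error was 0.10 for the members, 0.09 for all genes and 0.06 for genes of at least 8 CPM. The members were thus estimated less precisely than genes of similar level, and an uncalled member is not shown to be unchanged.

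**Figure D1:**
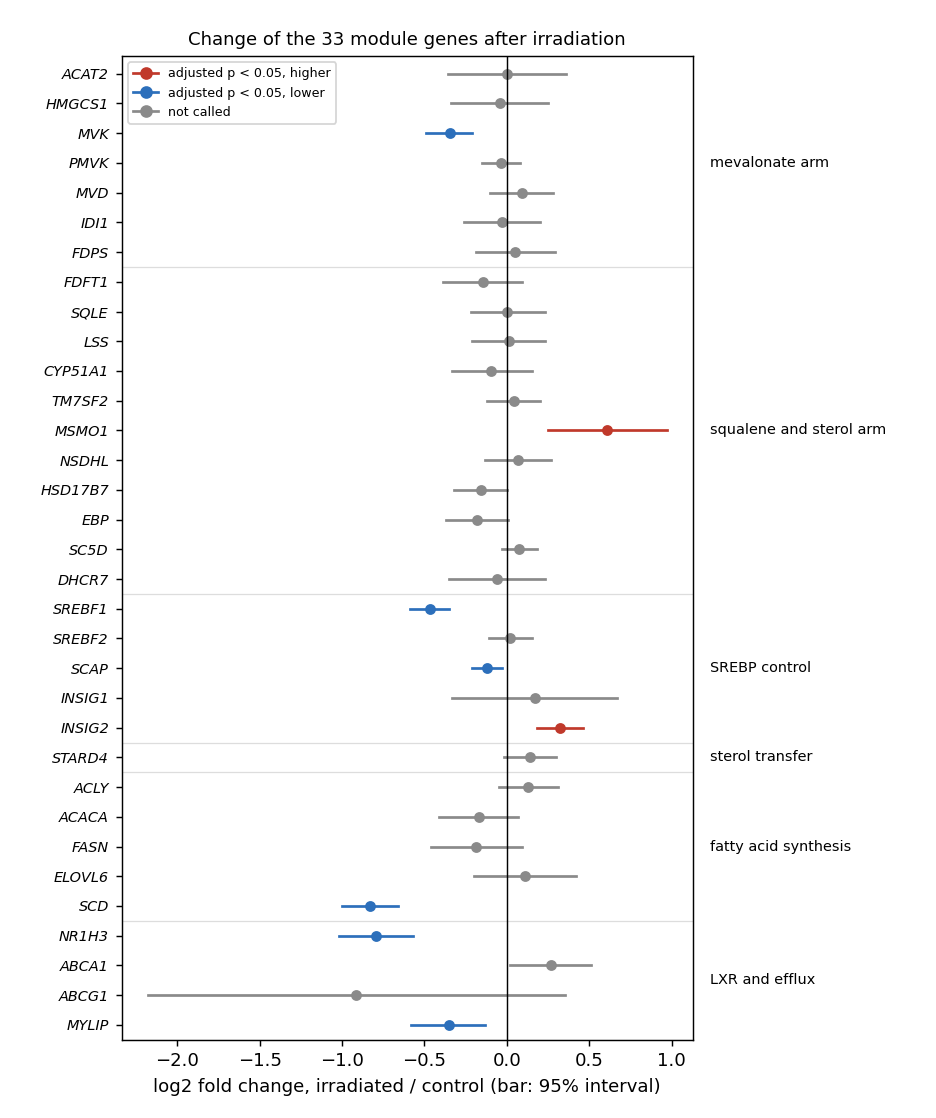
Log2 fold change of each of the 33 members, irradiated over control, on the x axis, ordered by role on the y axis. Points are estimates and bars are 95% intervals, in red for the 2 members called higher, blue for the 6 called lower and grey for the 25 not called. The intervals of most synthesis enzymes straddle 0, and ABCG1 has the widest interval.

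The mevalonate arm builds isoprenoid units from acetyl-CoA. Of its 7 genes, 1 fell and 6 were not called (14.3% called, against 46.6% of all genes). MVK, mevalonate kinase (chr12:109573255-109598125, plus strand, GRCh38), had 50.8, 63.0, 75.7, 48.8 and 54.4 CPM in Control replicates 1 to 5 and 46.2, 45.6, 53.6, 40.2 and 42.6 CPM in the irradiated samples of the same numbers. MVK was lower after irradiation in all 5 pairs, although the ranges of the groups overlapped. Its log2 fold change was -0.35 (SE 0.06, edgeR adjusted p = 0.00244).

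HMGCS1, which makes the HMG-CoA that feeds the pathway, went from 140.7 ± 35.0 to 134.2 ± 21.3 CPM (SD, n = 5), with a 95% interval of the log2 fold change of -0.34 to 0.25. ACAT2, which condenses acetyl-CoA at the first step, went from 33.7 ± 9.03 to 32.8 ± 3.27 CPM (-0.36 to 0.36). PMVK, MVD, IDI1 and FDPS, the later enzymes of the arm, were likewise not called, with intervals between -0.26 and 0.29 in all 4 genes. MVD, the decarboxylase, was called higher without replicate 2 (0.19, adjusted p = 0.0385). Part of the exon sequence of HMGCS1 (37.7%), ACAT2 (22.2%), FDPS (18.6%) and IDI1 (14.97%) lies under a gene on the opposite strand, and FDPS has near-identical pseudogene copies, so their counts are less certain.

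The squalene and sterol arm turns farnesyl units into cholesterol. Among its 11 genes 1 rose and 10 were not called (9.1% called, against 46.6% of all genes). MSMO1, the sterol methyl oxidase that removes the C-4 methyl groups of lanosterol derivatives (chr4:165327667-165343164, plus strand), had 72.8, 148.3, 102.7, 122.4 and 129.7 CPM in Control replicates 1 to 5 and 165.6, 145.4, 187.6, 181.0 and 178.1 CPM in the irradiated ones. Pair 2 alone did not show the increase, and the groups overlapped only through Control replicate 2. MSMO1 rose by 0.61 on the log2 scale (SE 0.15, adjusted p = 0.0135).

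The entry enzymes of the arm were not called. FDFT1, squalene synthase, went from 231.4 ± 23.5 to 209.8 ± 28.3 CPM, with an interval of -0.39 to 0.09. SQLE, squalene epoxidase, was at 144.8 ± 18.6 and 144.8 ± 16.1 CPM (-0.22 to 0.23). LSS, which folds oxidosqualene into lanosterol, was at 145.3 ± 15.3 and 146.3 ± 13.8 CPM (-0.21 to 0.23).

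The remaining enzymes remodel the sterol nucleus. DHCR7, which catalyses the last step of one branch, went from 124.1 ± 22.02 to 118.1 ± 14.1 CPM (-0.35 to 0.23), and NSDHL, a partner of MSMO1 in C-4 demethylation, from 33.04 ± 3.07 to 34.6 ± 3.09 CPM (-0.13 to 0.27). EBP, the sterol isomerase, went from 14.8 ± 2.56 to 12.95 ± 1.38 CPM (-0.37 to 0.01), and it was called lower without replicate 1 (-0.26, adjusted p = 0.0224) and under library size scaling (-0.26, adjusted p = 0.0277). HSD17B7, the 3-ketosteroid reductase, had an interval of -0.32 to 0.00 and was called lower under upper-quartile scaling (-0.19, adjusted p = 0.0497) and library size scaling (-0.24, adjusted p = 0.0246). CYP51A1, TM7SF2 and SC5D were not called, with intervals between -0.33 and 0.20. A gene on the same strand covers 68.2% of the exon sequence of CYP51A1 and 36.4% of that of EBP, and HSD17B7 has near-identical copies.

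Over the 18 synthesis genes as a whole, the median log2 fold change was -0.01 and the median absolute change 0.06. This small average hid differences between pairs that were larger and of opposite sign. Within pairs 1 to 5 the mean log2 difference of the 18 genes was 0.25, -0.33, 0.21, -0.08 and -0.08, and 16, 0, 15, 4 and 3 of the 18 genes were higher in the irradiated sample. Control replicate 1 was the lowest control for 14 of the 18 genes, and Control replicates 1 and 3 were together the lowest controls for 13 of 18, an arrangement seen in 20.65% of all genes tested, 24.57% of those with at least 8 CPM, and 24 of the 25 cell cycle genes. Among irradiated samples, replicate 2 was the lowest for 12 of the 18 genes and replicate 3 the highest for 16.

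**Figure D2:**
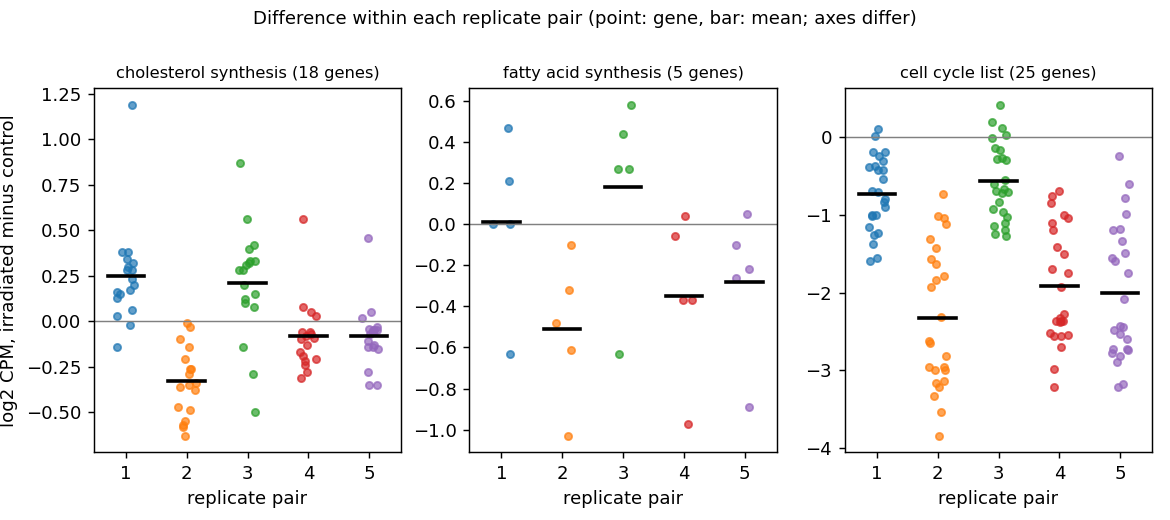
Log2 CPM of the irradiated minus the control sample of the same replicate number (y axis, on a separate scale in each panel) for replicate pairs 1 to 5 (x axis), with 1 point per gene and a black bar at the mean. Cholesterol synthesis genes lie mostly above 0 in pairs 1 and 3 (means 0.25 and 0.21) and at or below it in pair 2 (mean -0.33), and the cell cycle genes fell least in pairs 1 and 3.

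Because Control replicates 1 and 3 stood apart in cell cycle expression, the test was repeated with replicates 1 and 3 left out of both groups, a choice made after seeing the data. In the 3 remaining pairs, 15 members were called lower and 3 higher, against 24.07% and 22.98% of 17388 genes. Most synthesis genes were higher after irradiation in the pairs left out, so the choice itself moves their estimates lower. The count is thus not separate evidence of a fall. The 15 were ACAT2, IDI1, MVK, FDFT1, SQLE, CYP51A1, EBP and DHCR7 of the synthesis arm, the fatty acid genes ACACA, FASN, ELOVL6 and SCD, and SREBF1, SCAP and NR1H3. INSIG1, INSIG2 and ABCA1 were those called higher, and MSMO1 lost its call (0.31, adjusted p = 0.0537). SQLE changed sign to -0.21 (adjusted p = 0.0248) and ELOVL6 to -0.18 (adjusted p = 0.0460). The part that proliferation of the controls played in these values was not tested. Irradiated replicates 4 and 5 were much closer to each other than other irradiated samples (chi-square between counts 8.5 per gene, against 40.44 to 88.51). The 3 pairs may therefore hold less replication than their number, and the p-values may be too small. The same limit applies to the test on all samples.

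**Figure D3:**
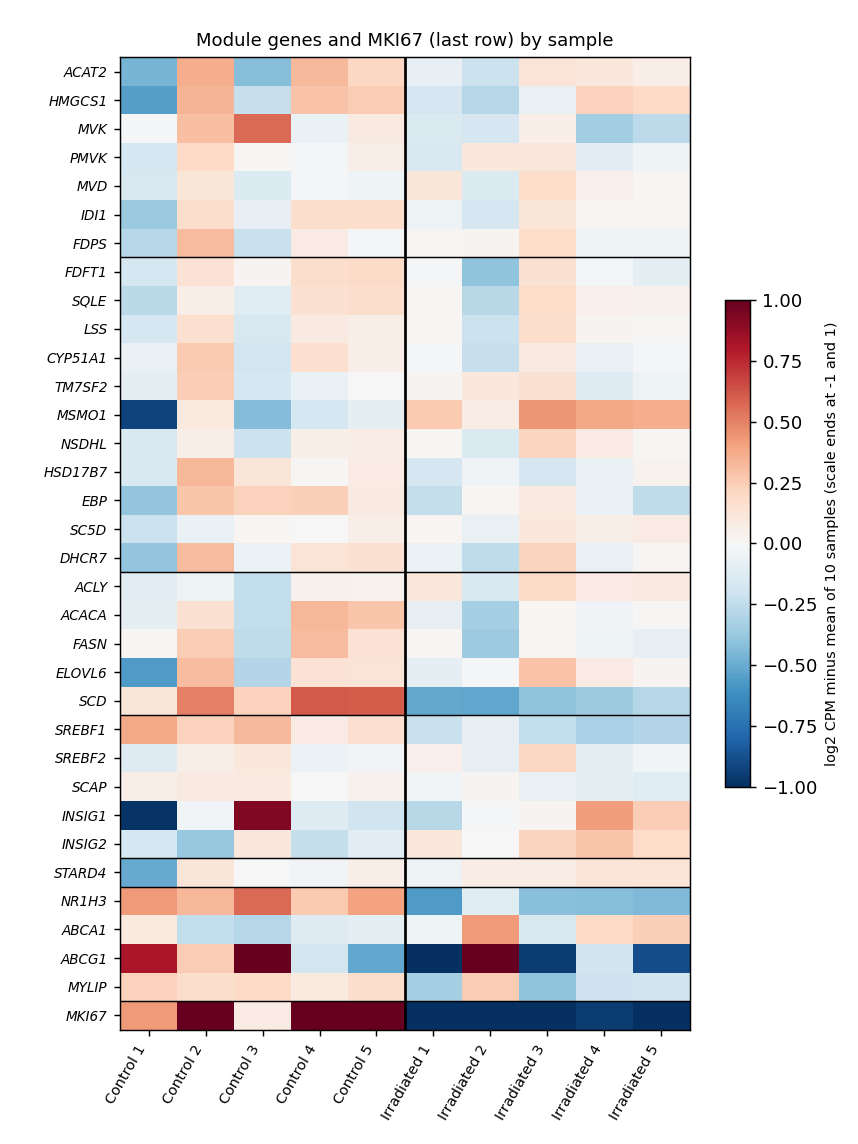
Log2 CPM of each member (rows, grouped by role, with the proliferation gene MKI67 last) in each of the 10 samples (columns), as the difference from the gene's mean over all samples, from blue (lower) to red (higher), with values beyond -1 or 1 drawn at the end colours. Control replicate 1 is blue across most synthesis genes, Irradiated replicate 2 shows low synthesis and high ABCA1, ABCG1 and MYLIP, and SCD, SREBF1 and NR1H3 divide the groups.

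The SREBP genes themselves diverged. SREBF1, which encodes SREBP1 (chr17:17810399-17837002, minus strand), had 190.1, 171.9, 183.4, 155.0 and 163.4 CPM in Control replicates 1 to 5 and 125.1, 138.0, 123.5, 116.8 and 119.8 CPM in the irradiated samples. Every irradiated value lay below every control value. The log2 fold change was -0.47 (SE 0.05, adjusted p = 0.000337), and over the 14 alternatives it ranged from -0.55 to -0.41. SREBF2, which encodes SREBP2 (chr22:41833105-41907306, plus strand), was at 374.0 to 438.0 CPM in controls and 382.2 to 470.4 CPM in irradiated samples. The ranges overlapped, with Irradiated replicate 3 above every control, and the log2 fold change was 0.02 with a 95% interval of -0.11 to 0.15.

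The promoters of this pair of genes are shown because their transcripts behaved differently, and those of MSMO1 and SCD because these were the synthesis genes with the largest called rise and fall. Each runs 5′ to 3′ along the gene's strand from 250 bases before to 50 after the RefSeq start (GRCh38.p14), with capitals at CCAAT, the letters bound by NF-Y, a usual partner of SREBP, and at CACNCCAC, a core of the sterol regulatory element, on either strand.
SREBF2: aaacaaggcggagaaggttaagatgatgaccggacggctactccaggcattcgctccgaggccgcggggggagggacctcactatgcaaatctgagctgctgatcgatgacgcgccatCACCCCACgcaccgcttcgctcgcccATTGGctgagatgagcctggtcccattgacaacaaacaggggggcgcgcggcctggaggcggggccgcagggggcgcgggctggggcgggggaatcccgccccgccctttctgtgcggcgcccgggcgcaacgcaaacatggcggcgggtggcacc
SREBF1: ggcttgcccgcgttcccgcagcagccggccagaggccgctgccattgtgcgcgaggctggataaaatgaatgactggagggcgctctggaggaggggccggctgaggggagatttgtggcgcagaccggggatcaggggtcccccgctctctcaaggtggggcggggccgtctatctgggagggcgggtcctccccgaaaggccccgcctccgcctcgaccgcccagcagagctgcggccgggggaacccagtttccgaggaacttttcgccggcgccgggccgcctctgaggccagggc
MSMO1: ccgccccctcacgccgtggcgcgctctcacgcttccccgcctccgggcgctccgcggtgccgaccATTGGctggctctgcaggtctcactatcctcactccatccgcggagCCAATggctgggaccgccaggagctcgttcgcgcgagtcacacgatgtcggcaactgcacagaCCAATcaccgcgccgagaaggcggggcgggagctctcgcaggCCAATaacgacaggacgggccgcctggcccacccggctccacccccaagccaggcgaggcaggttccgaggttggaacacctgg
SCD: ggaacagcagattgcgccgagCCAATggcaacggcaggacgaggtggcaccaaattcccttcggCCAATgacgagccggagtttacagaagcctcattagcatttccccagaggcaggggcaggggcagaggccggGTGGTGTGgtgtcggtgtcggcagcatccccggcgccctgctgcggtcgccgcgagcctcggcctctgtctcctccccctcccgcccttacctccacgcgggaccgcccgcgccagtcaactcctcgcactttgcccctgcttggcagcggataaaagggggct

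These windows lie at chr22:41832855-41833154 (plus strand), chr17:17836937-17837236 (minus), chr4:165327419-165327718 (plus) and chr10:100346983-100347282 (plus), in that order. SREBF2 held 1 CCAAT and 1 element core, MSMO1 held 4 CCAAT and no core, and SCD held 2 CCAAT and 1 core. In the SREBF1 window, which lies at the outermost start of the gene, these letters were not present. No other start of SREBF1 was searched, so this says nothing of the rest of the gene. RefSeq promoters were at hand for 28 of the 33 members, of which 21 held CCAAT and 7 the core (ABCA1, ACACA, IDI1, INSIG1, SC5D, SCD and SREBF2). Counted by promoter, 62.5% of the 40 member windows held CCAAT against 34.6% of all 35116, and 20% held the core against 5.87%. A letter match is not a binding site, and both called and uncalled genes carried them.

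The proteins that hold or release SREBPs showed small changes in both directions. INSIG2, an anchor of the SCAP complex (chr2:118088452-118110997, plus strand), had 26.9, 23.4, 32.8, 25.7 and 28.2 CPM in Control replicates 1 to 5 and 32.95, 30.4, 35.6, 36.9 and 34.5 CPM after irradiation. It was higher in all 5 pairs, with overlap only through Control replicate 3. INSIG2 rose by 0.32 on the log2 scale (SE 0.06, adjusted p = 0.00411), with the call kept under all 14 alternatives.

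SCAP, the escort protein (chr3:47413681-47477126, minus strand), went from 109.3 to 115.8 CPM in controls to 99.9 to 111.2 CPM in irradiated samples. The log2 fold change was -0.12 (SE 0.04, adjusted p = 0.0363), and SCAP was lower in all 5 pairs. SCAP was not called when replicate 1, 3, 4 or 5 was omitted (adjusted p = 0.0709, 0.0567, 0.107 and 0.149), without the block (0.0702) or when genes with at least 1 count were kept (0.0581).

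INSIG1, the other anchor and itself a sensitive SREBP target (chr7:155297776-155310235, plus strand), had 120.3, 233.2, 452.3, 216.6 and 206.9 CPM in Control replicates 1 to 5 and 196.3, 235.6, 242.1, 317.7 and 281.9 CPM in the irradiated ones. Control replicates 1 and 3 were the lowest and the highest of all 10 samples. With them included the log2 fold change was 0.17 (95% interval -0.33 to 0.67) and not called, and without replicate 3 it was 0.44 (adjusted p = 0.0148). STARD4, which moves sterol between membranes, went from 41.0 ± 6.37 to 44.8 ± 2.29 CPM (interval -0.02 to 0.30).

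**Figure D4:**
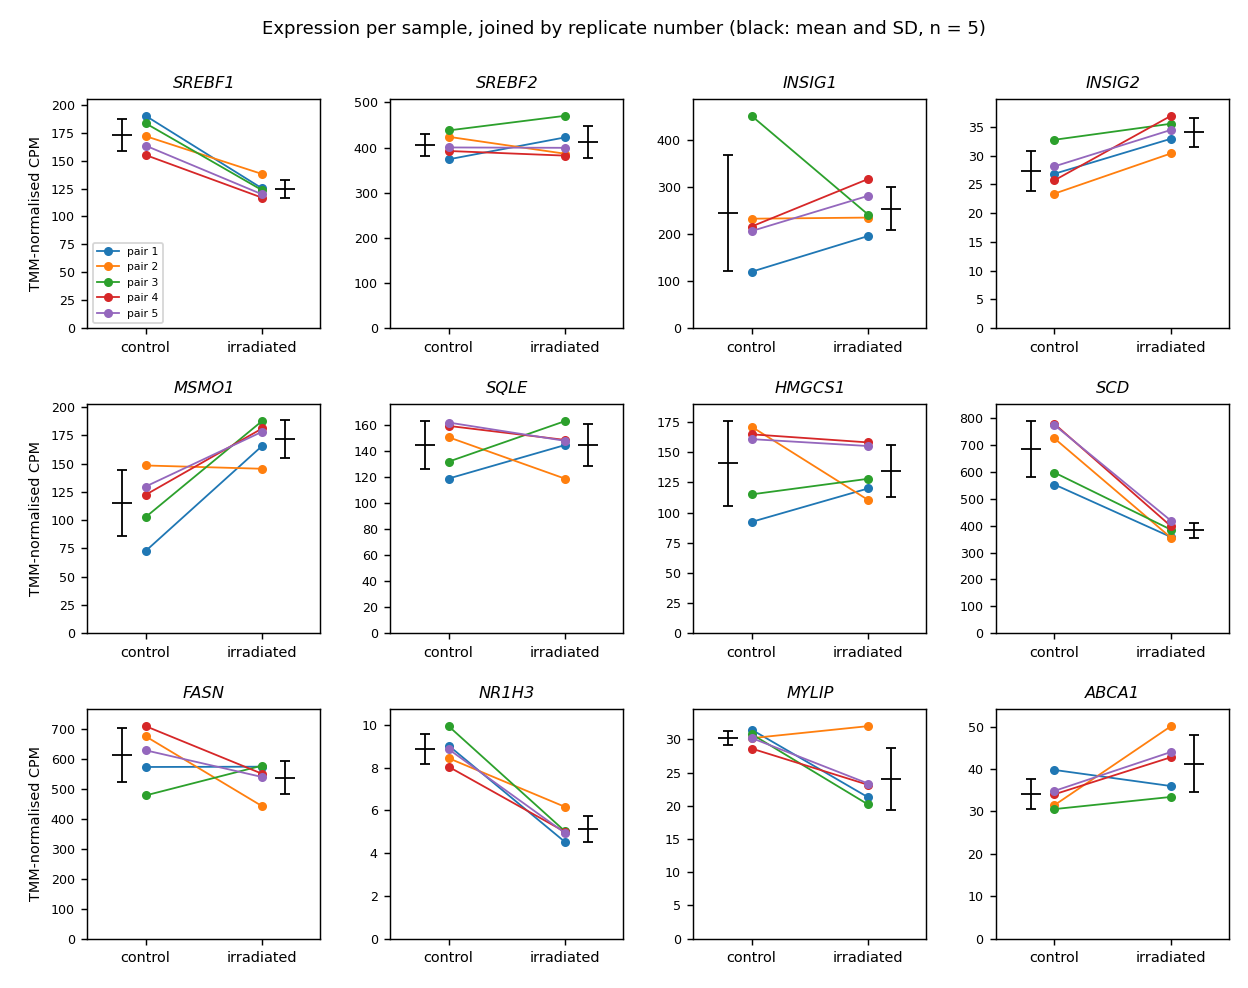
TMM-normalised CPM (y axis, from 0) of 12 members in control and irradiated samples (x axis), with the samples of each replicate number joined by a line and the mean and SD of each group (n = 5) in black. All 5 lines fall for SREBF1, SCD and NR1H3 and rise for INSIG2, while those of SQLE and HMGCS1 cross, and INSIG1 turns on Control replicates 1 and 3.

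In fatty acid synthesis 1 of 5 genes fell and 4 were not called (20% called, against 46.6% of all genes), with a median log2 fold change of -0.17. SCD, stearoyl-CoA desaturase, which makes monounsaturated fatty acids (chr10:100347233-100364826, plus strand), had the highest level of the members in controls, at 130.4 ± 19.8 CPM per kilobase of exon. It had 552.1, 723.0, 596.4, 776.7 and 772.5 CPM in Control replicates 1 to 5 and 357.4, 354.8, 384.6, 397.4 and 417.8 CPM after irradiation. The groups did not overlap, and all 5 pairs were lower. SCD changed by -0.83 on the log2 scale (SE 0.07, adjusted p = 0.000126), between -0.98 and -0.77 over the 14 alternatives.

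The other 4 genes, which act around SCD, were not called. ACLY, which supplies cytosolic acetyl-CoA, went from 358.9 ± 28.9 to 392.7 ± 33.3 CPM (interval -0.05 to 0.31). ACACA, the rate-limiting acetyl-CoA carboxylase, went from 175.1 ± 29.0 to 154.5 ± 14.8 CPM (-0.41 to 0.07), and FASN, fatty acid synthase, from 614.4 ± 91.4 to 538.0 ± 55.4 CPM (-0.46 to 0.09). Control replicate 3 was the lowest control for both, and without replicate 3 both were called lower, ACACA by -0.27 (adjusted p = 0.0249) and FASN by -0.29 (adjusted p = 0.0415). ELOVL6, which elongates palmitate, had an interval of -0.20 to 0.42. Control replicates 1 and 3 were the lowest controls for all 5 fatty acid genes, and the mean difference within pairs 1 to 5 was 0.01, -0.51, 0.18, -0.35 and -0.28.

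Among the 4 LXR and efflux genes 2 fell and 2 were not called (50% called, against 46.6% of all genes). NR1H3, which encodes LXR-alpha (chr11:47248300-47269033, plus strand), had 9.04, 8.45, 9.95, 8.05 and 8.87 CPM in Control replicates 1 to 5 and 4.52, 6.17, 5.02, 5.00 and 4.94 CPM in the irradiated samples. All irradiated values were below all control values. The log2 fold change was -0.79 (SE 0.10, adjusted p = 0.000522).

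MYLIP, an LXR-induced ubiquitin ligase that degrades lipoprotein receptors (chr6:16129086-16148248, plus strand), had 28.6 to 31.5 CPM in controls and 21.3, 32.0, 20.2, 23.2 and 23.3 CPM in Irradiated replicates 1 to 5. Irradiated replicate 2 lay above every control, and the other 4 irradiated samples lay below them all. The log2 fold change was -0.35 (SE 0.10, adjusted p = 0.0204), but it was not called when replicate 1, 4 or 5 was omitted (adjusted p = 0.0759, 0.0537 and 0.0682) or replicates 1 and 3 together (-0.21, adjusted p = 0.0899).

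The export pumps were not called. ABCA1, which loads cholesterol onto lipid-poor apolipoprotein, had 39.8, 31.5, 30.5, 34.0 and 34.8 CPM in Control replicates 1 to 5 and 36.0, 50.1, 33.4, 42.8 and 44.01 CPM after irradiation. Pairs 2 to 5 were higher and pair 1 lower, for a log2 fold change of 0.26 (SE 0.10, adjusted p = 0.0703). ABCA1 was called higher without replicate 1 (0.37, adjusted p = 0.0205) and by DESeq2 (0.26, adjusted p = 0.0445). ABCG1, which exports to mature lipoprotein, was the lowest member, at 0.82 ± 0.64 CPM in controls and 0.41 ± 0.33 CPM in irradiated samples from 592 counts in all, and its interval was -2.18 to 0.35. Its log2 difference within pairs 1 to 5 was -2.12, 0.76, -2.91, -0.01 and -0.37, so the pairs disagreed in size and sign. Irradiated replicate 2 had the highest value of the irradiated group for all 4 LXR and efflux genes, and the lowest for 12 of 18 cholesterol and 4 of 5 fatty acid synthesis genes.

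Uptake was read from 8 genes of receptors and lysosomal release, which are not members. Of these 2 rose, 1 fell and 5 were not called (37.5% called, against 46.6% of all genes). LIPA, the lysosomal acid lipase that frees cholesterol from its esters, rose from 32.6 to 40.7 CPM in controls to 46.9 to 59.1 CPM in irradiated samples, without overlap (0.46, SE 0.07, adjusted p = 0.00151). LRP1, a large endocytic receptor, had 175.7, 90.0, 131.9, 88.2 and 91.9 CPM in Control replicates 1 to 5 and 179.5, 146.7, 164.9, 125.2 and 137.2 CPM after irradiation. It was higher in all 5 pairs but with overlapping groups (0.43, SE 0.09, adjusted p = 0.00693), and the call was lost without the block (adjusted p = 0.135).

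LRP8, an apolipoprotein receptor, fell from 27.7 ± 7.27 to 18.1 ± 0.942 CPM (-0.57, SE 0.13, adjusted p = 0.00757). It was lower in all 5 pairs, by -0.06 in pair 1 and -1.07 in pair 2. The groups overlapped through Control replicate 1 (17.45 CPM, against 16.75 to 19.01 CPM in irradiated samples). SCARB1, VLDLR and CD36, the other surface receptors listed, were not called, CD36 being near the limit at 279 counts in all. VLDLR was called lower under upper-quartile (-0.17, adjusted p = 0.0483) and library size scaling (-0.21, adjusted p = 0.0235). NPC1 and NPC2, which pass cholesterol out of the lysosome, were also not called (intervals -0.05 to 0.59 and -0.43 to -0.02), with Control replicate 3 at 159.0 and 131.5 CPM against at most 82.9 and 85.6 CPM in the other controls. Without replicate 3, NPC1 was called higher (0.45, adjusted p = 0.000698), and NPC2 was called lower under 5 of the 14 alternatives, among them without replicate 2 (-0.28, adjusted p = 0.0464).

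Calls went in both directions among synthesis and uptake genes, while both called genes of the LXR and efflux list fell and neither export pump was called. The counts were 1 higher and 1 lower of 18 cholesterol synthesis genes, 2 higher and 1 lower of 8 uptake genes, and 2 lower of 4 LXR and efflux genes, with median log2 fold changes of -0.01, 0.03 and -0.57. The last median lies between NR1H3 and MYLIP and was 0.00 with replicates 1 and 3 left out. Called genes made up 11.1%, 37.5% and 50% of these lists, against 46.6% of all genes tested. The uptake and LXR shares rest on few genes and lie near that of all genes. A difference between these lists was not tested.

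Across 32 further genes of sterol and lipid handling, uptake included, 30 had at least 200 counts, and 7 rose and 8 fell, or 50% of those tested against the 46.6% of all genes. The genes named next were chosen after their values were seen. SOAT1, which esterifies cholesterol for storage, had 58.2 to 73.4 CPM in controls and 90.2 to 127.0 CPM in irradiated samples, without overlap (0.72, SE 0.07, adjusted p = 0.000212). CYP27A1, a mitochondrial sterol hydroxylase that makes an LXR ligand, went from 86.8 ± 10.7 to 121.9 ± 21.0 CPM (0.48, SE 0.06, adjusted p = 0.000574). The other tested genes of this storage and oxysterol list went in both directions. DGAT1 fell without overlap (-0.29, SE 0.06, adjusted p = 0.00643). DGAT2 rose from 0.958 to 1.43 CPM with overlapping groups (0.55, SE 0.19, adjusted p = 0.0493). SMPDL3A, a phosphodiesterase known as an LXR target, went from 3.96 ± 0.315 to 7.51 ± 0.762 CPM (0.92, SE 0.08, adjusted p = 9.1e-05), in the opposite direction to NR1H3 and MYLIP. LPCAT3, a phospholipid acyltransferase and also an LXR target, fell from 22.8 ± 3.58 to 17.6 ± 0.808 CPM without overlap (-0.36, SE 0.09, adjusted p = 0.0126), although 65.97% of its exon sequence lies under a gene on the opposite strand. The other 2 genes of that LXR list, NR1H2 and RXRA, were not called.

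**Figure D5:**
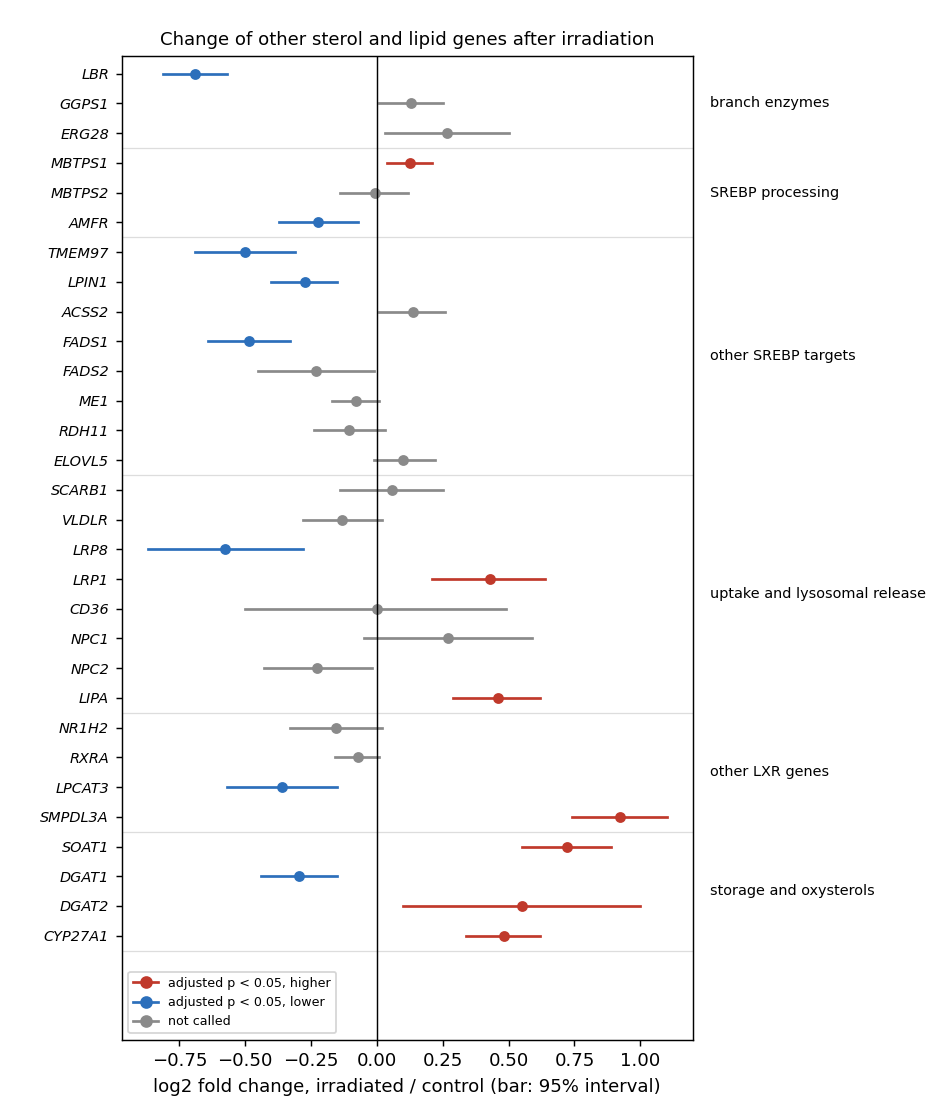
Log2 fold change, irradiated over control (x axis), of the 30 further sterol and lipid genes with at least 200 counts, ordered by role (y axis), with 95% intervals as bars and calls coloured as red (7 higher), blue (8 lower) and grey (15 not called). SMPDL3A and SOAT1 show the largest rises, and LBR the largest fall.

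Of 3 further genes of sterol and isoprenoid synthesis (LBR, GGPS1 and ERG28) 1 fell and 2 were not called (33.3% called, against 46.6% of all genes). They are not members, so they are not in the synthesis counts above. LBR, a sterol reductase that is also a nuclear envelope protein, fell from 75.1 ± 11.7 to 46.2 ± 3.68 CPM without overlap (-0.69, SE 0.05, adjusted p = 6.6e-05).

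Of 8 other SREBP targets 3 fell and 5 were not called (37.5% called, against 46.6% of all genes). TMEM97, a sterol-responsive membrane protein, went from 49.2 ± 11.8 to 34.1 ± 4.38 CPM (-0.50, SE 0.08, adjusted p = 0.00181). Its groups overlapped through Control replicate 1 (33.69 CPM, against at most 38.79 CPM in irradiated samples). FADS1, the delta-5 desaturase of polyunsaturated fatty acids, went from 126.2 ± 18.3 to 89.4 ± 4.33 CPM (-0.49, SE 0.07, adjusted p = 0.00083). FADS1 was lower in irradiated samples in all 5 pairs. FADS2, the delta-6 desaturase, went from 414.5 ± 65.9 to 350.2 ± 19.05 CPM and was not called (-0.23, SE 0.09, adjusted p = 0.0795), being lower in 4 of 5 pairs. FADS2 was called lower when replicate 3 was omitted (-0.31, adjusted p = 0.0200) and under 4 other alternatives.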

How the data were processed

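RNA-seq of polyA-enriched RNA was available for 10 samples, grouped by treatment and replicate number as in the labels. The deposited values are raw read counts per gene, which the authors made with STAR on hg38 (versions not given in the sources used here), and no normalisation had been applied. The labels and the study's methods name different library kits. Genes with at least 200 counts in all were kept, scaled by TMM (factors 0.9153 to 1.0635) and tested with edgeR 4.0.16 (R 4.3.3; quasi-likelihood, replicate number as a block, Benjamini-Hochberg over 19006 genes, threshold 0.05). The labels number the replicates alike in both groups, and the deviations of same-numbered samples from their group means correlated by 0.217 to 0.508 in every pair (over 0.1). The median between different numbers was -0.13. Control replicate 4 with Irradiated replicate 5 gave 0.295, and Control 5 with Irradiated 4 gave 0.317. Both exceed the 0.217 of pair 2, so the check separates replicates 4 and 5 only weakly. On simulated counts for 18896 genes with 200 changed, 75% of 1.5-fold and 99% of 2-fold changes were recovered. The changed genes were drawn at random and no replicate effect was simulated, so these rates do not describe the members. Members, gene lists and tests were chosen with earlier results of these data known. The genes to name were the 33 members, the uptake genes and any further gene called with over 2-fold change, of which there were 0. A gene of the wider pathway is not reported here. Alternatives were DESeq2 1.42.0, limma 3.58.1 (voom), other scalings and filters, no block, and samples left out (13 planned and 1 added after seeing the data). CPM per kilobase used GENCODE v44 exon lengths. Depths of 66269311 to 131555873 counts per sample left every member with at least 592 counts in all.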

Additional observations from a re-analysis of the deposited data

Results flagged for a closer look

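Values below lay so far from the other 4 samples of their group that the gap exceeded Dixon's 95% critical value for 5 samples (0.71 of the range). Of 102 groups of values looked at, 9 did so, and chance gives about 1 in 20, or 5.1. Irradiated replicate 2 was low for FASN (443.2 CPM, others 540.8 to 579.0) and high for MYLIP (31.98 CPM, others 20.19 to 23.34) and ABCG1 (0.9855 CPM, others 0.1816 to 0.4137). Control replicate 1 was low for STARD4 (30.05 CPM, others 41.78 to 46.21) and FADS1 (94.17 CPM, others 129.6 to 137.7). Control replicate 3 was high for NPC1 (159.0 CPM, others 71.04 to 82.93), NPC2 (131.5 CPM, others 75.45 to 85.63), LPCAT3 (29.06 CPM, others 20.44 to 22.02) and CDKN1A (207.6 CPM, others 66.74 to 80.89). The causes of these values were not tested.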

How the results depend on the processing

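Of 462 values (33 members under 14 alternatives), 429 kept their direction where called and their side of the threshold. In 11 a call was lost and in 20 one was gained with the same sign. The last 2 gained a call with the opposite sign to an uncalled estimate. The cause was not tested. With replicates 1 and 3 left out, 15 members were called lower (6 with all samples), 0 synthesis genes higher and 8 lower, 4 fatty acid genes lower, 2 SREBP control and transfer genes higher, and 1 efflux and LXR gene higher and 1 lower (median 0.00). Those called lower include SQLE (-0.21) and ELOVL6 (-0.18), whose uncalled estimates with all samples were 0.003 and 0.11. Leaving out 1 replicate at a time gave 1 to 2 synthesis genes higher and 1 to 2 lower, 1 to 3 fatty acid genes lower, 1 to 2 SREBP control genes higher and 1 to 2 lower, and 0 to 1 efflux genes higher and 1 to 2 lower. Upper-quartile scaling called 2 synthesis genes lower. Library size scaling called 3 synthesis genes and 15 further pathway genes lower (median of the latter -0.116). Over all genes 51.4% of calls were higher in the test with TMM, and 38.0% with library size scaling. Keeping genes with at least 1 count, and fitting without the replicate block, each left 1 SREBP control gene lower. The block changed no other call of a member, and without it 7006 genes were called in place of 8857. DESeq2 called 1 efflux gene higher.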
